A study of Homo sapiens with 12 samples.

Results

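The ETS transcription factors of prostate cancer (PCa) were described here across 2 PCa cell lines and a piRNA mimic. The group holds 10 genes that were chosen by symbol, ETV1, ETV4, ETV5, ERG, FLI1, ETS2, ELF3, EHF, SPDEF and ELK4, out of the 60660 genes in each table. LNCaP cells derive from a nodal metastasis and respond to androgen, and 22Rv1 cells derive from a PCa xenograft that had regrown in castrated mice. Cells of each line received NC-mimic, a control RNA, or piR-hsa-4447944 mimic (piR-mimic), a synthetic copy of the piRNA, and all of them were kept under androgen deprivation in medium with 10% charcoal-stripped serum. Total RNA was taken for mRNA sequencing, with 3 libraries in each of the 4 groups. Each line is a single line. The study describes the data shown with this sequencing as coming from independent experiments, but the labels do not say whether the 3 libraries of a group were separate cultures, so p-values measure the spread between libraries, which may be technical.

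ETS factors share a DNA-binding domain that recognises a GGAA core. In PCa, chromosome rearrangements place ERG, ETV1, ETV4, ETV5 or FLI1 under the control of androgen-driven or other highly active genes such as TMPRSS2 and SLC45A3, and LNCaP cells are known to carry ETV1 inserted in the MIPOL1 region of chromosome 14. ETV1, ETV4 and ETV5 form the PEA3 subfamily, whose genes and proteins respond to ERK signalling. SPDEF, EHF and ELF3 are epithelial ETS factors, ELK4 is a ternary complex factor that works with SRF, and ETS2 is an ERK-responsive factor close to ETS1.

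Promoter sequence is shown for ETV1, EHF, ETS2 and ELK4, each at a start site whose upstream bases overlap no annotated exon. ETV1 and EHF were chosen as the members lower in 22Rv1 by the widest margin, and ETS2 as one higher there. ELK4 was chosen as the only one of the 7 members with a window whose 100 upstream bases held a longer ETS motif. ERG also had start sites that overlap no exon, and it is not shown. RefSeq windows (GRCh38.p14) were found for 7 of the 10 members, and the 100 bases before the start site are printed 5′ to 3′ on the strand of the gene, with GGAA or its reverse complement TTCC in capitals. The ETV1 window is chr7:13991426-13991525 on the minus strand, that of EHF chr11:34624157-34624256 on the plus strand, that of ETS2 chr21:38805083-38805182 on the plus strand, and that of ELK4 chr1:205632012-205632111 on the minus strand.
ETV1: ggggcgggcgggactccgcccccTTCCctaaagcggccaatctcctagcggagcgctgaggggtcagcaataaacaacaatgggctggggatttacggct
EHF: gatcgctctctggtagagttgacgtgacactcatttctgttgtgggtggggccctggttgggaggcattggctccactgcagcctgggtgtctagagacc
ETS2: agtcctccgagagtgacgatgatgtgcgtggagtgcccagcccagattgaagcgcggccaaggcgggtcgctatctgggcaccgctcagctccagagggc
ELK4: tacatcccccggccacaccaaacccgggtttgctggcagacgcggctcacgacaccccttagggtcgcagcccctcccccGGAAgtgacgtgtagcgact
The core was present in 1 copy in the ETV1 and ELK4 stretches and in 0 copies in those of EHF and ETS2, where 66.8% of 35116 RefSeq windows of the same length held at least 1 on either strand. The longer motif CCGGAAGT, which contains the core, or its reverse complement lay in the ELK4 stretch and in 2.52% of all windows. ELK4 was chosen for this match among the 17 windows of the members, so the match is no result about it. Of the other ETV1 windows 2 also overlapped no exon, and they held 0 copies. The window shown is the one at the outermost start of the gene. A match is a string of letters and does not show that a factor binds there.

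Depth ranged from 12161091 to 22179601 expected counts (the reads RSEM assigned to genes) per library. The luminal prostate markers, KRT8, KRT18, KLK3, HOXB13, FOLH1 and EPCAM among them, were all present, with a summed TPM (a level scaled for transcript length and library size) of 4493 to 4833 in LNCaP and 1892 to 2557 in 22Rv1. Endothelial markers summed to at most 2.69 TPM and leukocyte markers to at most 10.7 TPM in any library. Basal markers summed to between 16.1 and 27.8 TPM in both lines, and fibroblast markers to between 8.10 and 44.5 TPM. The 2 basal markers tested with NC-mimic went opposite ways. ITGA6 was lower in 22Rv1 (log2 fold change -3.938 ± 0.16, SE) and DST higher (1.985 ± 0.1). Neuroendocrine markers summed to between 53.5 and 58.5 TPM in LNCaP and to between 223 and 981 TPM in 22Rv1, most of it from ENO2, a glycolytic enzyme (159.3 to 917.7 TPM in 22Rv1). SYP had at most 1.75 TPM in LNCaP and between 58.5 and 66.9 TPM in 22Rv1, CHGA at most 0.37 and between 0.87 and 14.0 TPM, and NCAM1 and INSM1 were at or near 0 in both lines. Their part in the line differences was not tested. In bulk libraries, fewer cells of a type and less RNA per cell cannot be told apart. Replicate 3 of 22Rv1 stood apart from replicates 1 and 2 in both groups, as pairs with it had a chi-square per gene from 41.3 to 118, where replicates 1 and 2 gave 8.81 and 7.55 and pairs of LNCaP libraries 3.56 to 16.5. Each line difference below was therefore also computed without it.

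The line comparison asked how much of each ETS transcript the lines hold, and it was made in the NC-mimic libraries and again in the piR-mimic libraries, which share no library. Of the 10 members, 8 passed the low-count filter and 2 (ERG and FLI1) did not. With NC-mimic all 8 differed between the lines at an adjusted p under 0.05 (edgeR's quasi-likelihood test, Benjamini-Hochberg over all genes), 5 higher and 3 lower in 22Rv1. The background was high, since 58.4% of all 17497 genes tested were called, 30.9% higher and 27.5% lower in 22Rv1. With piR-mimic 7 of the 8 were called, 4 higher and 3 lower in 22Rv1, where 52.4% of 17283 genes were called, 28.2% higher and 24.2% lower. The median log2 difference of the 8 members was 1.52 with NC-mimic and 1.32 with piR-mimic, against 0.015 and 0.043 over all genes tested.

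**Figure D1:**
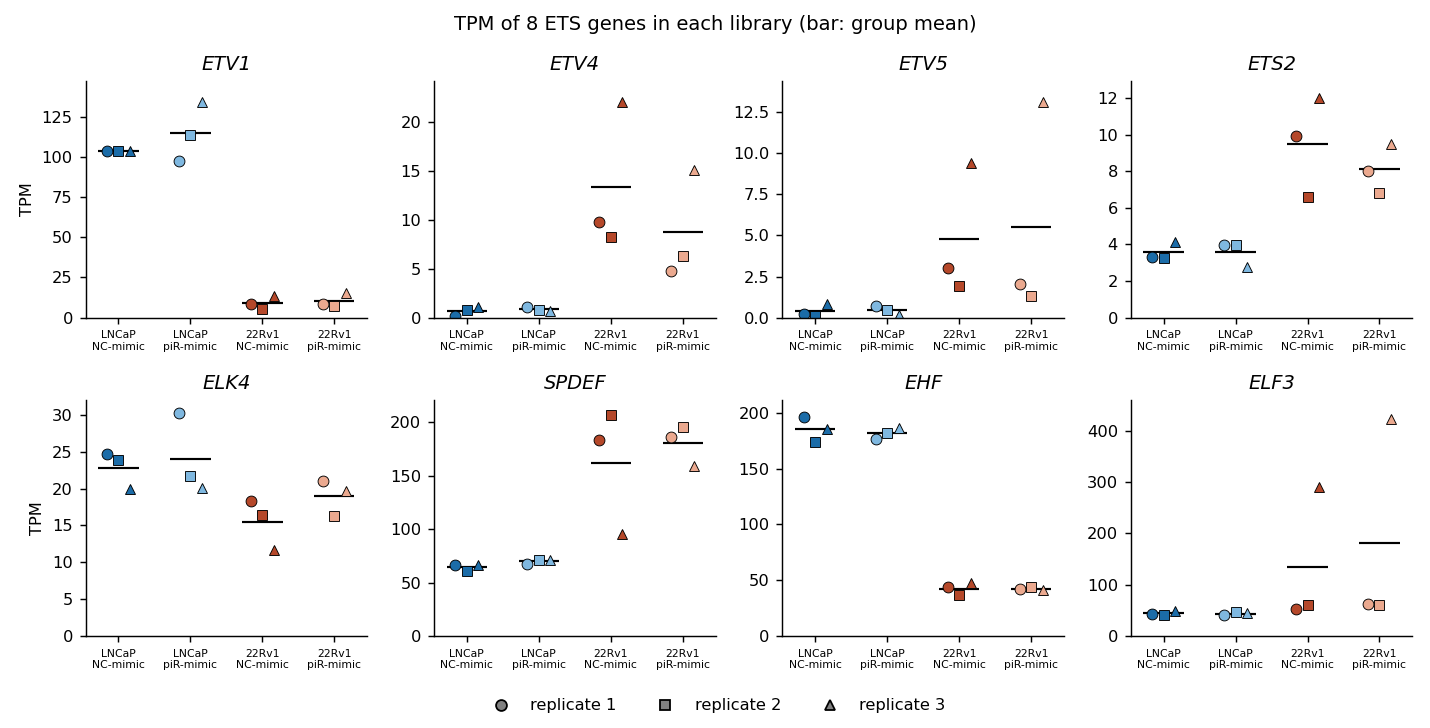
TPM of 8 ETS genes (vertical axes, from 0) in each of the 12 libraries, by group on the horizontal axis, with a symbol for each replicate number and a bar at the group mean. ETV1 and EHF lie higher in every LNCaP library, and ETV4, ETV5, ETS2, SPDEF and ELF3 higher in every 22Rv1 library, with replicate 3 of 22Rv1 far above the others for ELF3 and ETV5.

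ETV1, a PEA3 factor, lies on chromosome 7 from 13891229 to 13991425 on the minus strand (hg38, GENCODE release 44). Its TPM in LNCaP was 103.7, 103.8 and 103.6 with NC-mimic and 97.4, 113.5 and 134.2 with piR-mimic. In 22Rv1 it was 8.49, 5.54 and 13.3 with NC-mimic and 8.81, 7.40 and 15.1 with piR-mimic. The lines did not overlap, and the lowest LNCaP library lay far above the highest 22Rv1 library. On the count scale ETV1 was 8.48-fold lower in 22Rv1 with NC-mimic (log2 fold change -3.08 ± 0.25, SE, adjusted p = 2.80e-05) and 10.2-fold lower with piR-mimic (-3.36 ± 0.31, adjusted p = 0.000217). Without replicate 3 of 22Rv1 the log2 fold changes were -3.45 and -3.79. The transcript was still counted in every 22Rv1 library, with 234 to 513 reads, against 3297 to 4566 in LNCaP.

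The genes around ETV1 and those of the chromosome 14 region to which LNCaP cells are known to have moved it were described as a fixed list of 8 genes, of which 6 were tested. With NC-mimic 1 was higher in 22Rv1, 4 were lower and 1 was not called, and the counts were the same with piR-mimic. DGKB, a diacylglycerol kinase gene that lies 153623 bases from ETV1, was lower in 22Rv1 (log2 fold change -5.42 ± 0.54, SE, adjusted p = 8.10e-05 with NC-mimic, and -5.20 with piR-mimic), with 3.30 ± 0.347 TPM in LNCaP and 0.0767 ± 0.0764 TPM in 22Rv1 (SD, n = 3, NC-mimic).

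On chromosome 14, MIPOL1 had a log2 fold change of -0.98 ± 0.17 (22Rv1 over LNCaP, SE, adjusted p = 0.00137) with NC-mimic and of -1.15 with piR-mimic. FOXA1, a pioneer factor of the forkhead family, was also lower in 22Rv1 (-0.67 ± 0.08, adjusted p = 0.000248, and -0.59). TTC6, whose start overlaps that of FOXA1 on the other strand, was lower as well (-1.34 ± 0.12, adjusted p = 3.87e-05, and -1.39), and reads of overlapping genes cannot be told apart where the library's strand is not given. SLC25A21, a mitochondrial carrier gene, had values of -0.18 and 0.35 and was not called in either (adjusted p = 0.844 and 0.338). AGMO and MEOX2 had too few counts to be tested, and MEOX2 had 0 counts in all 12 libraries. Whether the rearranged locus plays a part in any of these levels was not tested.

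ETV4, another PEA3 factor (chromosome 17, 43527844 to 43579620, minus strand), was close to absent in LNCaP. Its TPM there was 0.20, 0.77 and 1.13 with NC-mimic and 1.13, 0.82 and 0.72 with piR-mimic, from 6 to 21 reads per library. The 22Rv1 libraries had 9.81, 8.20 and 22.0 with NC-mimic and 4.74, 6.32 and 15.1 with piR-mimic. The groups of the lines did not overlap. ETV4 was 20.1-fold higher in 22Rv1 with NC-mimic (log2 fold change 4.33 ± 0.56, SE, adjusted p = 0.000322) and 9.84-fold higher with piR-mimic (3.30 ± 0.57, adjusted p = 0.00294). Without replicate 3 of 22Rv1 the log2 fold changes of ETV4 were 3.76 and 2.57.

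ETV5, the remaining PEA3 factor (chromosome 3, 186046314 to 186110318, minus strand), had TPM of 0.25, 0.13 and 0.83 in LNCaP with NC-mimic and of 0.68, 0.47 and 0.18 with piR-mimic, from 2 to 9 reads. In 22Rv1 its TPM was 3.02, 1.93 and 9.41 with NC-mimic and 2.07, 1.32 and 13.1 with piR-mimic, and replicate 3 was the highest in both groups. The line difference of ETV5 was 5.51 ± 0.94 (log2, SE, adjusted p = 0.00133) with NC-mimic and 4.55 ± 0.92 (adjusted p = 0.00588) with piR-mimic. These values rested in good part on replicate 3, and without it the differences were 4.10 and 3.18, with adjusted p-values of 1.25e-05 and 0.000143. The antisense gene ETV5-AS1 had 0 counts in all 12 libraries. Within the PEA3 subfamily, then, ETV1 was the member at the highest TPM in each LNCaP library, while in 22Rv1 ETV1 and ETV4 lay within a similar range.

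ERG and FLI1, the ETS factors of the TMPRSS2-ERG rearrangement of PCa and of the EWSR1-FLI1 rearrangement of Ewing sarcoma, were at or near the floor in both lines. FLI1 (chromosome 11, 128686535 to 128813267) had 0 reads in all 12 libraries. ERG (chromosome 21, 38380027 to 38661780) had 1 read in a LNCaP library with piR-mimic, 3 reads in a 22Rv1 library with NC-mimic, and 0 in the other 10. A count of 0 allows up to 3 reads, or between 0.135 and 0.247 CPM (counts scaled by library size) here, and this limit covers counting error only. No fold change is given for either gene.

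ETS2, a broadly expressed ERK-responsive factor (chromosome 21, 38805183 to 38824955, plus strand), was low in both lines and higher in 22Rv1. In LNCaP its TPM was 3.29, 3.28 and 4.11 with NC-mimic and 3.98, 3.98 and 2.79 with piR-mimic. In 22Rv1 it was 9.90, 6.59 and 12 with NC-mimic and 8, 6.81 and 9.51 with piR-mimic. The lines did not overlap. The log2 fold change was 1.72 ± 0.19 (SE, adjusted p = 0.000122) with NC-mimic and 1.26 ± 0.24 (adjusted p = 0.00419) with piR-mimic, and without replicate 3 of 22Rv1 it was 1.62 and 1.05.

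SPDEF, an epithelial factor of the prostate (chromosome 6, 34537802 to 34556333, minus strand), was higher in 22Rv1. In LNCaP its TPM was 66.2, 61.0 and 66.7 with NC-mimic and 67.0, 71.4 and 71.2 with piR-mimic. The TPM in 22Rv1 was 182.9, 206.4 and 95.1 with NC-mimic and 186.4, 195.7 and 158.8 with piR-mimic. The groups did not overlap, and replicate 3 was the lowest 22Rv1 library in both groups. SPDEF was 2.60-fold higher in 22Rv1 in each comparison (log2 fold change 1.38 ± 0.25, SE, adjusted p = 0.00185 with NC-mimic, and 1.38 ± 0.11, adjusted p = 0.000107 with piR-mimic), and without replicate 3 of 22Rv1 the log2 values were 1.64 and 1.46.

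EHF, an epithelial factor that is known to restrain invasion in the prostate (chromosome 11, 34621093 to 34663288, plus strand), went the other way. Its TPM in LNCaP was 195.9, 174.0 and 185.4 with NC-mimic and 176.7, 182.0 and 186.8 with piR-mimic, the highest of the 10 members in that line. The 22Rv1 libraries held 43.7, 36.6 and 47.7 with NC-mimic and 42.1, 44.3 and 41.0 with piR-mimic. EHF was 3.64-fold lower in 22Rv1 with NC-mimic (log2 fold change -1.86 ± 0.10, SE, adjusted p = 2.97e-06) and 3.90-fold lower with piR-mimic (-1.96 ± 0.09, adjusted p = 1.49e-05). Without replicate 3 of 22Rv1 the EHF log2 values were -1.93 and -1.93.

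ELF3, an epithelial ETS factor induced by inflammatory signals (chromosome 1, 202007945 to 202017183, plus strand), had a spread in 22Rv1 that replicate 3 carried. In LNCaP its TPM was 43.2, 41.6 and 50 with NC-mimic and 40.6, 46.5 and 44.4 with piR-mimic. In 22Rv1 it was 52.5, 61.2 and 291.5 with NC-mimic and 61.9, 60.7 and 422.7 with piR-mimic. Every 22Rv1 library was above every LNCaP library, but replicate 3 lay far above the others. The log2 fold change was 1.66 ± 0.60 (SE, adjusted p = 0.0414) with NC-mimic and 2.05 ± 0.73 (adjusted p = 0.0516, not called) with piR-mimic. Without replicate 3 of 22Rv1 the ELF3 difference was 0.43 (adjusted p = 0.00403) and 0.59 (adjusted p = 4.35e-05). The ELF3 call with NC-mimic thus held without replicate 3 of 22Rv1. It was lost without LNCaP replicate 1, 2 or 3 (adjusted p between 0.105 and 0.126), and under 5 of the 9 other settings (adjusted p of at most 0.250).

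The expected counts of ELF3 were whole numbers in 0 of 12 libraries, while those of the other 9 members were whole in 12 of 12 (within 0.005 of a whole number). The gene ELF3-AS1 on the minus strand (chromosome 1, 201995696 to 202010463) overlaps ELF3, and it had 254 to 346 expected counts in LNCaP and 385 to 915 in 22Rv1, against 622 to 874 and 969 to 6386 for ELF3. The strand setting of the counting was not given in the sources used here. Reads in the stretch that ELF3 and ELF3-AS1 share (202007945 to 202010463) therefore cannot be told apart, and the values of ELF3 carry that uncertainty. The rest of ELF3, up to 202017183, lies outside ELF3-AS1.

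ELK4, a ternary complex factor (chromosome 1, 205597556 to 205632011, minus strand), lies 25839 bases from SLC45A3 on the same strand, and read-through transcripts that join SLC45A3 to ELK4 are known in PCa. Its TPM in LNCaP was 24.7, 23.9 and 19.9 with NC-mimic and 30.2, 21.8 and 20.1 with piR-mimic. In 22Rv1 it was 18.3, 16.4 and 11.7 with NC-mimic and 21.0, 16.3 and 19.7 with piR-mimic. By TPM the lines overlapped with piR-mimic and not with NC-mimic. By CPM they overlapped in neither, with 138.6 to 156.1 in LNCaP and 108.4 to 134.3 in 22Rv1 with piR-mimic. On the count scale the difference was the smallest of the 8 (log2 fold change -0.42 ± 0.14, SE, adjusted p = 0.0328, and -0.31 ± 0.11, adjusted p = 0.0478). With piR-mimic ELK4 was not called under any of the 9 other settings (adjusted p between 0.0509 and 0.296), nor without LNCaP replicate 1, 2 or 3 or 22Rv1 replicate 2. With NC-mimic its call was lost without LNCaP replicate 1 (adjusted p = 0.121) or 2 (adjusted p = 0.0836). Without replicate 3 of 22Rv1 the log2 values of ELK4 were -0.29 and -0.25.

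SLC45A3, the upstream neighbour of ELK4 and an androgen-driven gene, was 5.21-fold lower in 22Rv1 with NC-mimic (log2 fold change -2.38 ± 0.32, SE, adjusted p = 0.000398) and 6.09-fold lower with piR-mimic. Its TPM lay between 117.2 and 160.3 in LNCaP and between 13.4 and 38.1 in 22Rv1. The line difference of ELK4 was thus in the same direction and much smaller. Reads that span both genes cannot be seen in tables of counts per gene.

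**Figure D2:**
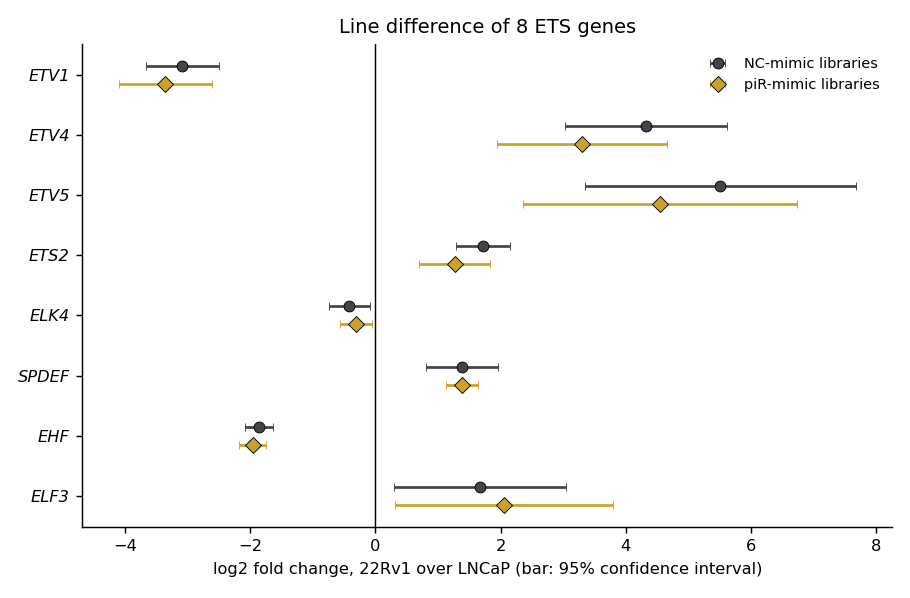
Log2 fold change of 22Rv1 over LNCaP (horizontal axis) for the 8 ETS genes tested, in the NC-mimic libraries (circles) and the piR-mimic libraries (diamonds), with 95% confidence intervals from edgeR. The interval of ELK4 comes closest to 0 among the genes lower in 22Rv1, and those of ETV5 and ELF3 are the widest.

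By TPM, which is scaled for length, the order of the group means in LNCaP with NC-mimic was EHF at 185.1 ± 10.95 (SD, n = 3), ETV1 at 103.7 ± 0.1, SPDEF at 64.6 ± 3.19, ELF3 at 44.9 ± 4.46, ELK4 at 22.8 ± 2.58, ETS2 at 3.56 ± 0.476, ETV4 at 0.700 ± 0.469 and ETV5 at 0.403 ± 0.374. The neighbours ETV4 and ETV5 overlapped in that order and no other neighbours did. The small SD of ETV1 held on the TPM scale only, as its CPM in those libraries was 213.9, 234.0 and 222.1. With piR-mimic its TPM SD in LNCaP was 18.5. In 22Rv1 with NC-mimic the order of the mean TPM was SPDEF at 161.5 ± 58.7, ELF3 at 135.1 ± 135.5, EHF at 42.7 ± 5.62, ELK4 at 15.5 ± 3.39, ETV4 at 13.3 ± 7.55, ETS2 at 9.50 ± 2.73, ETV1 at 9.10 ± 3.91 and ETV5 at 4.79 ± 4.04. Here SPDEF overlapped with ELF3, and the 5 genes from ELK4 to ETV5 formed a run in which each overlapped with the next. With piR-mimic the mean in 22Rv1 was 181.7 TPM for ELF3 and 180.3 TPM for SPDEF, and in replicate 3 ELF3 lay above SPDEF in both groups, so these neighbours in the order did not differ beyond their spread.

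RSEM reports for each gene a transcript length weighted by the isoforms to which it assigned reads, and this length was compared beside the level. Of the 6 members with at least 10 counts in every NC-mimic library, 2 had lengths that did not overlap between the lines, where 25.4% of 12011 genes did so. ETV1 was assigned 3002, 3273 and 2998 bases in LNCaP and 3517, 4598 and 3895 bases in 22Rv1. EHF was assigned 4509 ± 308 bases in LNCaP and 5123 ± 194 bases in 22Rv1 (SD, n = 3). Each had an exact two-sided permutation p of 0.1, the smallest that 3 against 3 libraries allow, so this design could not reach 0.05. With piR-mimic 1 of 7 members (EHF, 4632 ± 142 against 5017 ± 55 bases) did not overlap, where 24.9% of 11908 genes did so, and ETV1 overlapped.

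The mimic comparison asked whether piR-mimic changed the ETS genes within a line. With edgeR's quasi-likelihood test 0 members reached an adjusted p under 0.05, and it called 0 genes of 16244 in LNCaP and 0 of 16898 in 22Rv1. An unadjusted p under 0.05 was found for 433 genes in LNCaP and 250 in 22Rv1, and DESeq2 called 2 and 4 genes at an adjusted p under 0.05. By the rule of the study, a log2 fold change beyond 0.2 in size with an unadjusted p under 0.05, 0 members were changed in LNCaP, where 2.22% of all genes were, and 0 in 22Rv1, where 1.48% were. The same rule on the mean effect over both lines took 0 of 8 members and 1.54% of 18720 genes. The difference of the mimic effect between the lines had an unadjusted p under 0.05 for 0 of 8 members and 3.26% of all genes, and an adjusted p under 0.05 for 0 genes with edgeR and 3 with DESeq2.

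In LNCaP 7 members were tested, since ETV5 did not pass the filter there, and their log2 fold changes ran from -0.06 for ELF3 to 0.40 for ETV4. The highly expressed members were measured closely. The 95% confidence interval was -0.16 to 0.19 for ETV1, -0.10 to 0.14 for EHF, -0.04 to 0.28 for SPDEF, -0.23 to 0.13 for ELK4 and -0.26 to 0.13 for ELF3. For ETS2 it was -0.31 to 0.44, and for ETV4, with 6 to 21 reads a library, -0.68 to 1.47. These intervals give the sizes of change that the fit leaves possible.

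In 22Rv1 all 8 were tested and the intervals were wider. ETV4 had a log2 fold change of -0.66 ± 0.55 (piR-mimic over NC-mimic, SE), ETS2 of -0.41 ± 0.23, ETV5 of -0.41 ± 0.94, ETV1 of -0.29 ± 0.38 and EHF of -0.10 ± 0.13. ELK4 had 0.05 ± 0.17, SPDEF 0.10 ± 0.27 and ELF3 0.28 ± 0.90. The 95% confidence interval was -1.96 to 0.64 for ETV4 and -1.83 to 2.40 for ELF3. Replicate 3 weighed on these values. Without both replicate 3 libraries ETV4 (-0.79 ± 0.25, unadjusted p = 0.00757) and ETS2 (-0.51 ± 0.18, unadjusted p = 0.0140) met the rule of the study, with an adjusted p of 0.976 each. More genes in all also met the rule under that setting than in the reported fit, as counted in the last section. Their share of all genes is not given, so this is not read as a result about ETV4 and ETS2.

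Libraries of 22Rv1 were also paired by replicate number, which the labels do not state. With the replicate number as a block 1 of the 8 members met the rule of the study. It was ETV4, with a log2 fold change of -0.72 ± 0.20 (SE, unadjusted p = 0.00915, adjusted p = 0.869), and its TPM was lower with piR-mimic than with NC-mimic in each of the 3 pairs, 4.74 against 9.81, 6.32 against 8.20 and 15.1 against 22.0. With the block more genes in all also met the rule than in the reported fit, as counted in the last section. Their share of all genes is not given, so this is not read as a result about ETV4. By adjusted p no member was called with the block.

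The direction of ETV1 in 22Rv1 depended on the scale. By counts the log2 fold change was -0.29, while on the log2(TPM + 1) scale of limma it was 0.19 (adjusted p = 0.999 and 1.00). The isoform-weighted length of ETV1 in 22Rv1 was 4003 ± 548 bases with NC-mimic and 2986 ± 327 bases with piR-mimic (SD, n = 3). These did not overlap (exact two-sided permutation p = 0.1, the smallest possible, adjusted p = 0.8 over the members tested). For no other member tested were the lengths of the mimic groups apart, in either line. The share of all genes with such lengths is not given for the mimic, so this is not read as a mimic effect on ETV1. TPM divides by the isoform-weighted length, so the 2 scales differ by it.

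Replicate 3 of 22Rv1 was then described, without a test, since it was chosen after its values were seen. Of the 8 members 5 lay above both other replicates in both groups (23.8% of all 16898 genes did), 3 lay at least 2-fold above both (3.21% of all genes) and 2 lay below both (24.1%). As a ratio of CPM to the mean of replicates 1 and 2, ELF3 was at 5.05 with NC-mimic and 6.24 with piR-mimic, and ETV5 was at 6.03 and 5.70. ETV4 was at 2.47 and 2.96, ETV1 at 1.91 and 2.04, and ETS2 at 1.21 and 1.48. SPDEF was at 0.497 and 0.825 and ELK4 at 0.734 and 0.865.

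In the same libraries, 12 of 15 ERK pathway output genes lay above both other replicates, 4 lay at least 2-fold above and 2 lay below both. Those below were EPHA4 (0.781 and 0.73 times the mean of replicates 1 and 2) and CCND1 (0.808 and 0.946 times). DUSP6, a phosphatase of ERK that ERK itself induces, was at 4.04 and 4.81 times the mean of replicates 1 and 2, and EGR1, an immediate early factor, at 4.82 and 4.33 times. Their part in the levels of the ETS genes was not tested. Of the neuroendocrine markers, CHGA was at 10.4 and 3.10 times, ENO2 at 1.40 and 4.93 times and SYP at 1.04 and 0.991 times. All 3 PEA3 members lay above both other replicates, and so did 1 of the 3 epithelial factors, ELF3, while SPDEF and EHF did not.

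**Figure D3:**
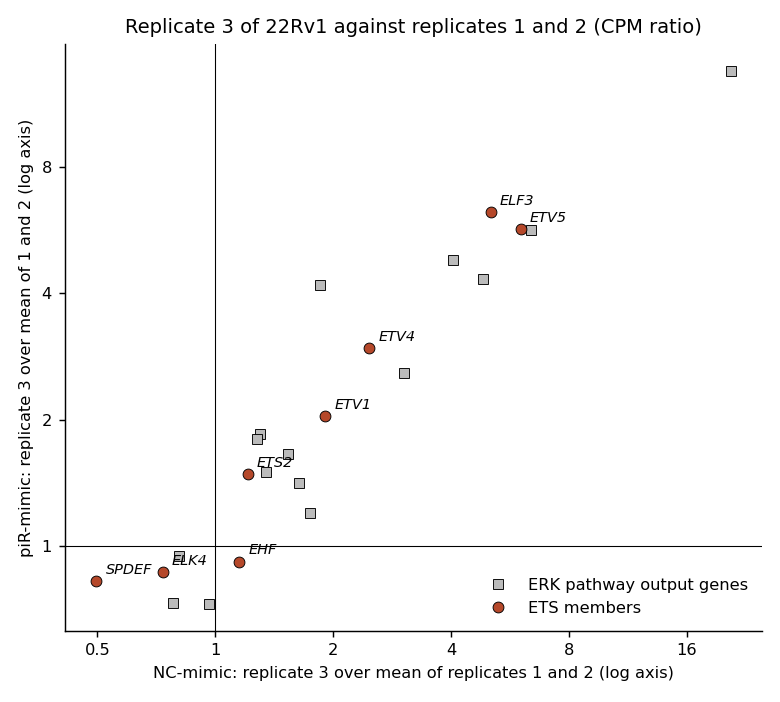
Ratio of replicate 3 to the mean of replicates 1 and 2 in 22Rv1 with NC-mimic (horizontal, log axis) and piR-mimic (vertical, log axis), from CPM, for the 8 ETS genes tested and 15 ERK pathway output genes. ELF3 and ETV5 lie between 5.05 and 6.24 in both groups, among the ERK pathway genes DUSP4, DUSP6 and EGR1, and SPDEF and ELK4 lie under 1 in both.

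The other members of the family, the proteins that act on ETS factors and the genes they are known to drive were compared between the lines by lists. Of 18 other ETS genes 14 were tested with NC-mimic, of which 7 were higher in 22Rv1, 3 were lower and 4 were not called, and with piR-mimic the counts were 8, 3 and 3. Over all genes tested 58.4% and 52.4% were called, which is the background for each list. The median log2 difference was 0.46 and 0.54. ETS1, the closest relative of ETS2, had 117 reads over the LNCaP libraries with NC-mimic and 0 in 22Rv1, so it was at least 11.1-fold lower in 22Rv1 (against 3 reads in each library), and at least 9.67-fold lower with piR-mimic. FEV, a factor of serotonergic neurons, was higher in 22Rv1 by 4.76 ± 0.55 (log2, SE, adjusted p = 0.000169), at 0.333 ± 0.127 TPM in LNCaP and 12.3 ± 2.57 TPM in 22Rv1 (SD, n = 3, NC-mimic). ELF5, a luminal factor of the breast, was higher by 4.26 ± 0.30 (adjusted p = 1.42e-05), and ETV7 by 3.59 ± 0.53 (adjusted p = 0.000602).

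Among 11 repressors and degraders of ETS factors, 2 were higher in 22Rv1, 3 lower and 6 not called in each comparison, beside 58.4% and 52.4% of all genes called, with a median of -0.15 with NC-mimic and 0.07 with piR-mimic. COP1, the ubiquitin ligase that marks ETV1, ETV4 and ETV5 for degradation, was higher in 22Rv1 (log2 fold change 0.64 ± 0.13, SE, adjusted p = 0.00357, and 0.76 with piR-mimic), and so was its partner DDB1 (1.04 ± 0.09, adjusted p = 3.65e-05, and 1.01). TRIM25, a ligase for ERG, was lower (-1.31 ± 0.17, adjusted p = 0.000300, and -1.44), and SPOP, which is mutated in a class of PCa without ETS rearrangements, was lower (-0.66 ± 0.12, adjusted p = 0.00153, and -0.75). Transcript levels do not show the amount of these proteins.

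Of 10 genes known as 5′ partners of ETS fusions, 1 was higher in 22Rv1, 5 were lower and 4 were not called with NC-mimic, and 1, 4 and 5 with piR-mimic, with a median of -0.57 and -0.42. Beside SLC45A3, the androgen-driven genes KLK2 (-1.99 ± 0.13, log2, SE, adjusted p = 1.03e-05, and -2.34 with piR-mimic) and TMPRSS2 (-1.94 ± 0.27, adjusted p = 0.000475, and -2.04) were lower in 22Rv1. FOXP1, a forkhead factor, was lower with NC-mimic (-1.02 ± 0.12, adjusted p = 0.000164). With piR-mimic FOXP1 had -0.56 and was not called (adjusted p = 0.109), though it was without replicate 3 of 22Rv1 (-0.92, adjusted p = 2.01e-05).

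Of 16 ERK pathway output genes 15 were tested, and 11 were higher in 22Rv1, 0 lower and 4 not called with NC-mimic, and 8, 0 and 7 with piR-mimic. Over all genes 30.9% were higher and 27.5% lower with NC-mimic, and 28.2% and 24.2% with piR-mimic. The median log2 difference of the list was 0.96 and 0.92. EPHA4, an ephrin receptor, had 0 reads in LNCaP and was at least 32.5-fold higher in 22Rv1 with NC-mimic and at least 31.0-fold higher with piR-mimic. SPRY2, a feedback inhibitor of receptor signalling, was higher by 4.49 ± 0.39 (log2, SE, adjusted p = 3.88e-05). DUSP6 was higher by 3.75 ± 0.67 (adjusted p = 0.00174) and EGR1 by 3.25 ± 0.66 (adjusted p = 0.00324), and without replicate 3 of 22Rv1 these were 2.74 and 2.07.

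Of 20 genes known as ETS targets 13 were tested with NC-mimic, with 7 higher in 22Rv1, 5 lower and 1 not called, and 14 with piR-mimic, with 6, 4 and 4. The medians were 1.58 and 0.88. MMP7, a matrix protease, had 442 reads in LNCaP and 0 in 22Rv1 with NC-mimic and was at least 41.6-fold lower there. TFF3, a secreted mucosal peptide, had 176 and 0 reads and was at least 16.7-fold lower. PLAT, the tissue plasminogen activator, was higher in 22Rv1 by 3.18 ± 0.48 (log2, SE, adjusted p = 0.000721), at 0.147 ± 0.0503 and 1.39 ± 0.466 TPM (SD, n = 3). The targets thus differed between the lines in both directions.

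Of 12 partner factors of ETS proteins 4 were higher in 22Rv1, 5 lower and 3 not called with NC-mimic, and 5, 2 and 5 with piR-mimic, with a median of 0.25 and 0.45. SRF, with which ELK4 binds DNA, was higher by 0.84 ± 0.12 (log2, SE, adjusted p = 0.000512). JUND, a subunit of AP-1, was higher by 0.97 ± 0.14 (adjusted p = 0.000609). FOS was higher by 3.94 ± 1.13 (adjusted p = 0.0168), and by 1.45 (adjusted p = 0.00840) without replicate 3 of 22Rv1, where it stood at 15.1 and 13.5 times the mean of replicates 1 and 2. The FOS call was lost without LNCaP replicate 2 (adjusted p = 0.0730) or 3 (adjusted p = 0.0691). For the mimic, 0 genes of these lists were called by adjusted p in LNCaP or 22Rv1.

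Genes with a pattern like that of ETV1 were named by the Pearson correlation of log2 CPM over the 12 libraries among 18720 genes, as a description, since the libraries form a cluster for each line and share their depth and line. The 5 nearest to ETV1 were RALGAPA2, TSPAN9, ARHGAP44, COL6A1 and GOLM1, with r between 0.996 and 0.997 over all libraries. Within the 6 libraries of 22Rv1 r was between 0.944 and 0.977, and within those of LNCaP it was between 0.049 and 0.455. The genes were chosen from these same libraries, so the values within a line are no separate check. In 22Rv1 replicate 3 had the highest ETV1 level in both groups (39.1 and 33.2 CPM, against at most 21.6 CPM in replicates 1 and 2). The 5 nearest to SPDEF were SAMD10, APH1A, SMARCC2, GAS8 and TSPOAP1, with r between 0.988 and 0.994 over all libraries, between 0.933 and 0.991 within 22Rv1 and between 0.264 and 0.819 within LNCaP. The same limit holds for them, and replicate 3 of 22Rv1 had the lowest SPDEF level in both groups (126.1 and 198.8 CPM).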

How the data were processed

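RNA of 12 libraries was sequenced. Per the submitters' processing notes, STAR 2.7.1a aligned the reads to hg38 and RSEM 1.3.0 quantified the genes. The authors deposited expected counts (reads estimated for each gene, without normalization) and TPM (scaled for transcript length and library size, so they hold no depth). The annotation release and strand setting were not given in the sources used here.

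Expected counts were rounded and compared with edgeR 4.0.16 in R 4.3.3 (TMM, filterByExpr, quasi-likelihood test), each comparison in its own libraries, with p-values adjusted over all genes by the Benjamini-Hochberg method. CPM are counts scaled to library size after TMM. Standard errors are edgeR's estimate over its test statistic. Only the mimic fit in LNCaP and the line fit with NC-mimic were run on simulated data, with a single fixed spread for all genes. That spread was smaller than the real one of the NC-mimic line fit, so the simulation checks the code and not the power here. Alternatives were DESeq2 1.42.0, limma 3.58.1 on log2(TPM + 1) or log2(TPM + 0.1) (TPM of 1 or more in 3 libraries), median-of-ratios scaling, other filters, the replicate number as a block, 1 fit over all 12 libraries, and leaving out libraries. The log2(TPM + 1) scale understates fold changes of low genes.

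The members and gene lists were chosen with earlier results of these data known. The rule for naming took all members and ETV1 neighbours, and of each other list the 4 genes with the largest called line difference. Some genes of the lists that this rule takes are not reported here. Same-numbered libraries of 22Rv1 had correlations of 0.198, 0.167 and 0.355 in their deviations from the group means. For LNCaP the values were 0.021, 0.005 and 0.189. Deviations sum to 0 within a group, so replicate 3 standing apart in both 22Rv1 groups can raise all 3 of its values. Libraries with unlike numbers were not compared within a line, so these correlations do not show pairing. The pairs of 22Rv1 libraries are an assumption that the labels do not state.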

Additional observations from a re-analysis of the deposited data

How the results depend on the processing

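The line differences of ETV1, ETV4, EHF, ETS2 and SPDEF were called under every alternative that gave a value, and those of ELF3 and ELK4 were not. With limma on log2(TPM + 1), ETV5 was not called with piR-mimic (1.70, adjusted p = 0.0712, or 0.132 without a filter). With NC-mimic 6 of 10 members had a higher mean in 22Rv1 by TPM, and 6 by CPM, but 1 of them is ERG, on 3 reads in a single library, which gives no direction. Depth limits ETV4, ETV5 and ERG in LNCaP, and the spread of replicate 3 limits 22Rv1. The cause of the changes below was not tested.

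Genes with an adjusted p under 0.05 for the mimic in LNCaP numbered 46 without a filter, 2 with DESeq2 and 1 with each limma setting. In 22Rv1 they numbered 4 with DESeq2, 2 with limma on log2(TPM + 1), 3 on log2(TPM + 0.1), and 4 without both replicate 3 libraries. For the difference between the lines they numbered 3 with DESeq2 and 2, 1 and 7 with limma at pseudocounts of 1, 0.1, and 1 without a filter. None was a member.

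By the rule of the study, where the reported fit took 361 genes in LNCaP, 891 were taken without a filter, 2 with DESeq2, 578, 560 and 895 with limma in the same order, and 168 with 1 fit over all libraries. In 22Rv1 the reported fit took 250 of 16898 genes (1.48%). The counts there were 532 without a filter, 459, 449 and 772 with limma, and 420 with the replicate block (1 of 8 members). They were 1232 with 1 fit over all libraries and 781 without both replicate 3 libraries (2 of 8 members). The number of genes tested under these other settings is not given. The mean effect, at 289, gave 770 without a filter, 72 with DESeq2 and 594, 622 and 849 with limma. The difference between the lines, at 610, had an unadjusted p under 0.05 for 1035 genes without a filter, 338 with at least 10 counts in every library, 1180 with limma without a filter and 1184 without both replicate 3 libraries (3 members, ETV1, ETV4 and ETS2). The replicate block changed no other member's call except that of ELK4 with piR-mimic (adjusted p = 0.0567), in a comparison between lines, where no label pairs the libraries by number.

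Mimic effects that were not called changed sign as follows. In LNCaP, limma gave EHF -0.024 (-0.025 at a pseudocount of 0.1) and ELK4 0.053 (0.054), and ETS2 -0.001 at 0.1. In 22Rv1, limma gave ETV1 0.194 (0.216) and EHF 0.001 in each limma setting, and without both replicate 3 libraries EHF was 0.021, SPDEF -0.068 and ELK4 -0.011. SLC25A21 had a line difference with piR-mimic of -0.41 with limma (-0.54 at 0.1).

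Leaving out 1 library at a time, 6 to 8 of the 8 members were called in each line comparison, among 8453 to 12117 genes with NC-mimic and 6888 to 12494 with piR-mimic, and lengths that did not overlap numbered 2 to 4. Called mimic effects numbered 0 to 2 in LNCaP, 0 in 22Rv1 and 0 to 1 for the difference between the lines. The rule of the study took 284 to 1008 genes in LNCaP, 183 to 376 in 22Rv1 (0 to 2 members) and 295 to 423 for the mean, and the difference had an unadjusted p under 0.05 for 407 to 1041 genes (0 to 3 members). In LNCaP the mimic effect ran from -0.072 to 0.088 for ETV1, -0.003 to 0.184 for ETS2, -0.119 to 0.011 for ELF3 and -0.122 to 0.017 for ELK4. In 22Rv1 it ran from -0.706 to 0.088 for ETV1, -1.749 to 1.002 for ETV5, -1.152 to 1.518 for ELF3, -0.164 to 0.330 for SPDEF and -0.086 to 0.120 for ELK4. The SLC25A21 line difference with NC-mimic ran from -0.715 to 0.324.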
